A study of Mus musculus with 47 samples.

Results

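The acetylcholine receptor genes Chrm1, Chrm2, Chrm3, Chrm4, Chrna4, Chrna5, Chrna7 and Chrnb2 were followed in single NPY-positive neurons of mouse auditory cortex (AC) and of the hippocampal areas CA3 and CA1. These 8 genes are rows of a read count table with 22800 gene symbols, and they were named as a family, not by their values. The cytosol of each cell was drawn into a patch pipette from a slice of a mouse aged 3 to 8 weeks, and its polyA RNA was sequenced as 1 library (Patch-RNAseq). The series holds 47 such libraries from 8 mice, and the genes were compared in 26 of them, each a different cell: 10 from the superficial layers of AC, 13 from the stratum lacunosum-moleculare of CA3 and 3 from CA1. The labels name 20 AC, 21 CA3 and 3 CA1 libraries, so the AC and CA3 cells compared are a part of those labelled. All 26 are untreated cells that carried the fluorescent NPY reporter, a line that the labels name NPY-EGFP and the study's methods name NPY-hrGFP, from animals of both sexes. A reporter of this kind marks every cell in which the Npy promoter drives it, so 1 region can hold more than 1 cell type.

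Acetylcholine acts through 2 unrelated receptor families. The muscarinic receptors (Chrm genes) are G protein-coupled: the products of Chrm1 and Chrm3 couple mainly to Gq and phospholipase C, and those of Chrm2 and Chrm4 to Gi and Go proteins. The nicotinic receptors are cation channels of 5 subunits, in brain mostly the homomeric channel of the alpha7 subunit (Chrna7) or heteromers of alpha4 (Chrna4) and beta2 (Chrnb2), which the accessory alpha5 subunit (Chrna5) can join. In the cortex and hippocampus, superficial interneurons, neurogliaform cells included, are known for nicotinic responses to cholinergic fibres from the basal forebrain and septum.

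Sequencing depth was 1715012 to 6265431 reads in the AC cells, 2229519 to 7949918 in the CA3 cells and 601781 to 3202430 in the CA1 cells. A mean of 4757.6, 5860.2 and 5137.0 genes had a read per AC, CA3 and CA1 cell, and of 4338.1, 5365.6 and 4930.7 after each cell was thinned to 601781 reads. Npy, Gad1 and Gad2 were read in all 26 cells; these are the reporter's own gene and defining markers of GABAergic neurons. Transcripts of other cell types were present too. Of 6 microglia markers, 6, 6 and 4 had a read in AC, CA3 and CA1, and their summed level had medians of 283, 121 and 247 CPM (reads of a gene per 1000000 reads of the cell) and highest values of 4365, 2161 and 251 CPM. Of 6 astrocyte markers, 5, 3 and 5 had a read, with medians of 217, 37.9 and 211 CPM and highest values of 3015, 660 and 1683 CPM; Slc1a3 was read in 6 of the 10 AC cells, 1 of the 13 CA3 cells and 2 of the 3 CA1 cells, and Aqp4 was at 0 in every cell. Of 6 oligodendrocyte markers, 2, 4 and 3 had a read, with medians of 0, 7.41 and 267 CPM and highest values of 367, 955 and 354 CPM; Mbp was read in 7 of the 13 CA3 cells, and Mog and Cldn11 were at 0 throughout. Of 5 pyramidal cell markers, 4, 3 and 2 had a read, with medians of 68.0, 6.63 and 50.4 CPM, and of 4 endothelial markers, 1 had a read in each region. The part of these transcripts in the results below was not tested. Each library is 1 cell and no label names its mouse, so every region counts as 1 sample: no difference between regions was tested, no p-value is given, and the spread shown is that between cells. Intervals are exact 95% intervals and cover counting error only.

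Of the 8 genes, 6 had a read in the 26 cells and only 4 were read in at least 5 of them, the minimum set for a gene to be compared between regions. Chrnb2 was read in 26 cells, Chrm1 and Chrna7 in 15 each, Chrna4 in 10, Chrm3 in 4 and Chrm4 in 1. Chrm2 and Chrna5 had no read in any of the 26 cells. A count of 0, read as a limit of 3 reads, allows up to 0.0341 CPM for either gene at the summed depth. This limit covers counting error only and not the spread between cells. An AC cell had a read of 3 ± 1.25 of the 8 genes (mean ± SD, n = 10, range 1 to 5), a CA3 cell of 2.54 ± 1.05 (n = 13, range 1 to 5) and a CA1 cell of 2.67 ± 1.53 (n = 3, range 1 to 4).

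**Figure D1:**
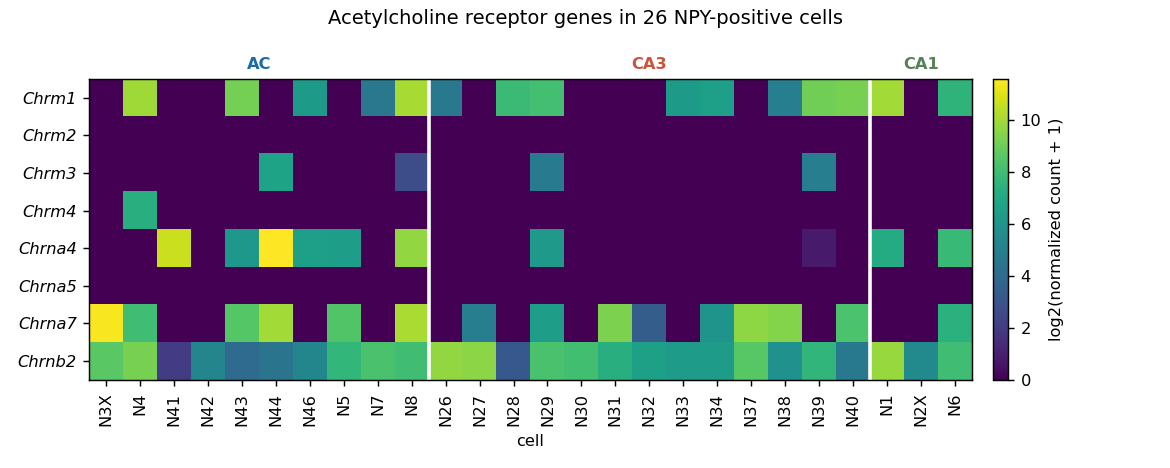
Level of each receptor gene (rows) in each of the 26 cells (columns, grouped by region), as log2 of the normalized count plus 1. Dark purple is 0 reads. Chrna4 is lit in 6 of the 10 AC columns but 2 of the 13 CA3 columns, while Chrm1 and Chrna7 are lit in about as large a share of AC as of CA3 cells, and Chrm2 and Chrna5 are dark throughout.

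Sequences before the RefSeq starts of Chrna4 and Chrna7 are shown because their mean levels were at least 1 log2 higher in AC than in CA3. No other receptor gene read in at least 5 cells met this. Each is the 250 bases before the RefSeq transcription start on GRCm38.p6, 5′ to 3′ on the gene's own strand, with every GC box (GGGCGG, or CCGCCC on the other strand) in capitals. The Chrna4 window is chr2:181039178-181039427, minus strand, and the Chrna7 window is chr7:63212527-63212776, minus strand. The GENCODE gene models used below place the starts elsewhere. By them the Chrna4 window lies inside the gene (chr2:181018380-181043546), and the Chrna7 window overlaps the 5′ end of its gene (chr7:63098692-63212569).
Chrna4: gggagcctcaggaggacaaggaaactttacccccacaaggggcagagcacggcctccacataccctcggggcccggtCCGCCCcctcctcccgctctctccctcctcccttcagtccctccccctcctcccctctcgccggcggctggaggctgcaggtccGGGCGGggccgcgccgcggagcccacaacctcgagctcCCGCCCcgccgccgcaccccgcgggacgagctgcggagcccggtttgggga
Chrna7: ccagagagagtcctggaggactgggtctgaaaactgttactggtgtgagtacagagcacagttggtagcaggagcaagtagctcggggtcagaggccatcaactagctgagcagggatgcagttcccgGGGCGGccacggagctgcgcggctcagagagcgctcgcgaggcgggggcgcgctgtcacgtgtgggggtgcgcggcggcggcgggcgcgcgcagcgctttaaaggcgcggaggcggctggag
The Chrna4 window held 3 GC boxes and no E-box (CANNTG, which reads the same on both strands), and the Chrna7 window held 1 GC box and 2 E-boxes. Both were rich in G and C, with 74.4% and 67.2% against a median of 52.4% over all 32851 promoter windows. A GC box was in 32.7% and an E-box in 66.2% of all these windows. Promoters of 7 of the 8 genes were matched by symbol, Chrna5 with 2 starts. Of these 8 windows, 5 held a GC box and 5 an E-box. The letters describe the windows and say nothing about which factors bind there.

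Chrna4, the alpha4 subunit of the main high-affinity nicotinic receptor of brain, differed most between AC and CA3. The gene (ENSMUSG00000027577.14) lies at chr2:181018380-181043546 on the minus strand and shares no exon base with another gene. Of the 10 AC cells 6 had a read (60%, interval 26.2 to 87.8%), of the 13 CA3 cells 2 (15.4%, interval 1.92 to 45.4%) and of the 3 CA1 cells 2 (66.7%, interval 9.43 to 99.2%). The 6 AC cells held 2817 reads (N44), 1559 (N41), 1506 (N8), 87 (N46), 68 (N43) and 55 (N5), or 855, 357, 240, 26.8, 21.8 and 29.1 CPM. Thus 3 AC cells were high, 3 were low but above the counting floor, and 4 had no read. In CA3, N29 held 73 reads (23.1 CPM) and N39 held 2 reads, and the other 11 cells none. In CA1, N6 held 88 reads (71.5 CPM) and N1 24 reads (39.9 CPM), and N2X, the deepest CA1 cell, none.

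Over the summed reads of a region, Chrna4 reached 179 CPM in AC (6092 reads, interval 174 to 183), 1.54 CPM in CA3 (75 reads, interval 1.21 to 1.92) and 22.2 CPM in CA1 (112 reads, interval 18.3 to 26.8). The AC value was 117 times that of CA3 (interval 92.8 to 148). AC cell N44 held 46.2% of the AC reads and CA3 cell N29 97.3% of the CA3 reads, so the fold was 69.4 without N44, and without N29 only 2 CA3 reads remained and it was 4087 (interval 1131 to 33755). On the log2 scale of normalized counts plus 1 the mean level was 5.12 ± 4.76 (SD, n = 10) in AC, 0.54 ± 1.72 (n = 13) in CA3 and 4.99 ± 4.33 (n = 3) in CA1. The difference between AC and CA3 was 4.57, and 99.7% of the 9494 genes compared had a lower difference. Chrna4 reached the minimum of 5 cells only through its 6 AC cells, since 2 CA3 and 2 CA1 cells had a read. Its place among the genes compared is therefore a description only. The cells of both regions overlapped at 0 reads. The astrocyte markers were set beside Chrna4 after the values were seen. Of the 10 cells with Chrna4, Slc1a2 was read in 8, Aldoc in 5, Slc1a3 in 3, Gja1 in 3, Gfap in 1 and Aqp4 in 0. Of the 16 cells without it, Slc1a2 was read in 10, Slc1a3 in 6, Aldoc in 4, Gfap in 1, and Gja1 and Aqp4 in 0. Within AC, the summed astrocyte level was 0.303 to 1118 CPM (median 217) in the 6 cells with Chrna4 and 0.247 to 3015 CPM (median 533) in the 4 without it. In CA3 it was 243 and 660 CPM in the 2 cells with Chrna4 and 0 to 407 CPM (median 1.87) in the 11 without it, and in CA1 211 and 1683 CPM in the 2 with it and 155 CPM in the other. The part of these transcripts in the Chrna4 difference was not tested. CA1 lay 4.44 above CA3 in mean level, with 14.5 times its summed CPM (interval 10.7 to 19.7; 4.11 without N6, 39.8 without N2X, and 508 with an interval of 137 to 4248 without N29). CA1 minus AC was -0.13 in mean level, far less than the spread between cells (2.38 without N2X, -1.55 without N6 and -1.18 without N1), although the summed CPM of AC was 8.04 times that of CA1 (interval 6.67 to 9.78). The ratio of CA1 to AC, 0.124, was 0.342 without N2X, 0.209 without N44 and 0.0353 without N6.

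Among the 26 cells, Chrna7, the subunit of the fast, calcium-permeable alpha7 channel, was read at similar rates in AC and CA3. In these cells it reached higher counts in AC. The gene (ENSMUSG00000030525.8) lies at chr7:63098692-63212569 on the minus strand and shares no exon base with another gene. Reads were found in 60% of the AC cells (6 of 10, interval 26.2 to 87.8%), 61.5% of the CA3 cells (8 of 13, interval 31.6 to 86.1%) and 33.3% of the CA1 cells (1 of 3, interval 0.840 to 90.6%). Over the AC cells the level ran from 0 to 941 CPM with a median of 95.3, and over the CA3 cells from 0 to 233 CPM with a median of 7.60. In CA1 only N6 had reads (67 reads, 54.5 CPM). Cell N3X was highest in AC with 3819 reads, followed by N8 with 1966 and N44 with 921, and in CA3 the highest were N37 with 994, N38 with 782 and N31 with 633. Where the gene was read at all, its median was 196 CPM in AC and 56.8 CPM in CA3, and the ranges overlapped, since the lowest positive AC cell (78.7 CPM) lay below 4 of the 8 positive CA3 cells.

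Summed over cells, Chrna7 stood at 217 CPM in AC (interval 212 to 222), 61.3 CPM in CA3 (interval 59.2 to 63.6) and 13.3 CPM in CA1 (interval 10.3 to 16.9). The AC value was 3.54 times that of CA3, but N3X alone held 51.6% of the AC reads and the fold without it was 1.95. The mean log2 level was 5.65 ± 4.96 (SD, n = 10) in AC, 4.42 ± 4.05 (n = 13) in CA3 and 2.47 ± 4.29 (n = 3) in CA1. The AC level was 1.23 above that of CA3, a difference within the SD of either region, and 0.61 without N3X. It also fell under 1, to between 0.72 and 0.96, without N4, N43, N44, N5 or N8 in AC or without N26, N28, N30, N33 or N39 in CA3. With the other labelled cells added, except AC cells N49 and N9, which had no positive size factor, it was 0.02. Over all labelled cells, with the near-identical AC libraries N4 and N4X averaged as 1 cell, the fold of summed CPM was 1.24. The level was then 135 CPM in AC, where 6 of 19 cells had a read, and 109 CPM in CA3, where 9 of 21 had one. The added CA3 cell N36 held 2775 reads, and its 1125 CPM lay above the 941 CPM of AC cell N3X. In mean log2 level CA1 minus CA3 was -1.95 and CA1 minus AC was -3.18. These differences rest on 3 CA1 cells: CA1 minus CA3 was -0.67 without N1, -0.68 without N2X and -4.43 without N6, and CA1 minus AC was -1.88 without N2X and -5.65 without N6. With the other labelled cells added in the same way both fell under 1 log2 in size, to -0.87 and -0.88.

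**Figure D2:**
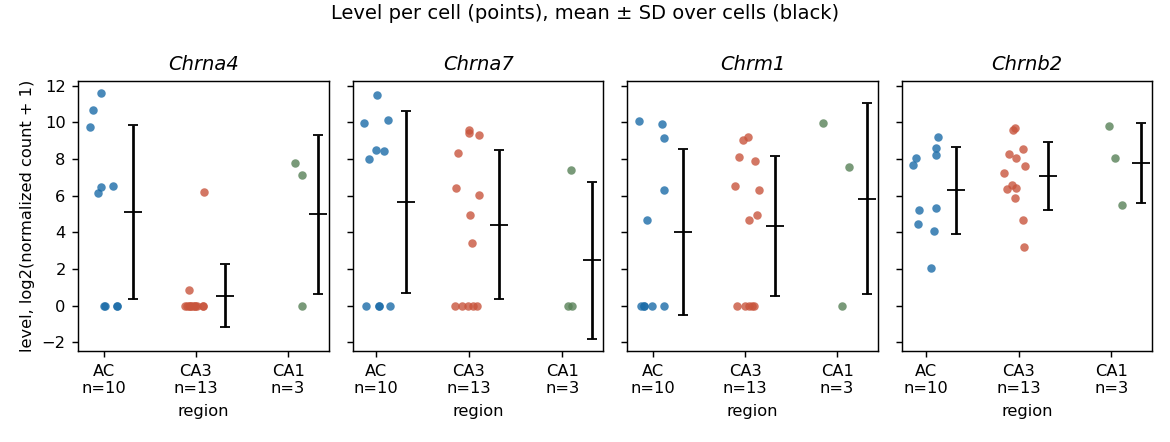
Level of Chrna4, Chrna7, Chrm1 and Chrnb2 in each cell (points) by region, as log2 of the normalized count plus 1, with the mean and SD over cells in black (10 AC, 13 CA3 and 3 CA1 cells). Cells without a read lie at 0. For Chrna4, 11 of the 13 CA3 points are at 0, and for the first 3 genes the regions overlap at 0.

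Chrnb2, the beta2 subunit that pairs with alpha4, had a read in each of the 26 cells. In most of them these reads cannot be told apart from those of Adar, the gene of the adenosine deaminase that edits double-stranded RNA. Chrnb2 (ENSMUSG00000027950.7) lies at chr3:89746195-89764632 on the minus strand and Adar at chr3:89715022-89753446 on the plus strand, and their annotated exons share 1365 bases. The library kit does not mark strand. In 5 of the 26 cells the 2 genes had exactly the same count: 3 and 3 in AC cell N41, 15 and 15 in N43, 31 and 31 in N42, 6 and 6 in CA3 cell N28, and 41 and 41 in CA1 cell N2X. Such identity was more common for gene pairs of this kind over the whole table: with at least 10 reads of both genes in a cell, counts were equal in 2.21% of 5779 values from pairs on opposite strands sharing at least 100 exon bases, and in 0.0955% of 13612 values from neighbours on opposite strands sharing none. Whether a read in the shared bases was entered in both rows is not given in the sources used here.

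Taken as deposited, Chrnb2 ranged from 0.686 to 181 CPM in AC (median 39.5), from 2.53 to 247 CPM in CA3 (median 42) and from 12.8 to 251 CPM in CA1 (values 251, 84.5 and 12.8). Its summed level was 52.1 CPM in AC (interval 49.7 to 54.6), 63.8 CPM in CA3 (interval 61.6 to 66.1) and 58.8 CPM in CA1 (interval 52.3 to 65.9), and its mean log2 level was 6.29 ± 2.39 (SD, n = 10), 7.09 ± 1.86 (n = 13) and 7.78 ± 2.16 (n = 3). The difference of AC from CA3, at -0.80, lay within the SD, and it was -1.14 without N4, -1.01 without N3X, -1.05 without N7, -1.13 without N28 and -0.29 without N41. With the other labelled cells added, N49 and N9 again left out, its sign turned, to 0.31. The median of all genes in that comparison was -0.69. Only 4 cells held more Chrnb2 than Adar reads, all of them in CA3: N26 with 551 against 270, N29 with 307 against 38, N38 with 66 against 15, and N40 with 29 against 28. In these cells alone the Chrnb2 count cannot be made up wholly of reads that also stand in the Adar row. N29 also held most of the CA3 reads of Chrna4. No AC or CA1 cell had such an excess. Outside the 26 cells, AC cell N10 had 114 reads of Chrnb2 and none of Adar.

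**Figure D3:**
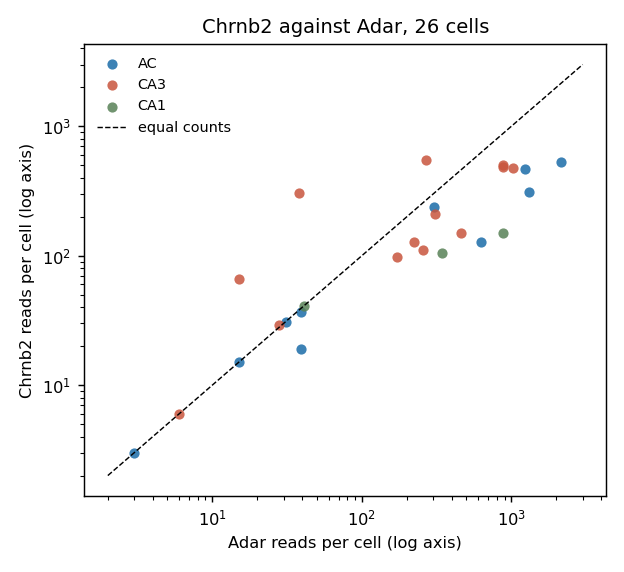
Reads of Chrnb2 against reads of Adar in each of the 26 cells, both on log axes, coloured by region, with a dashed line where the counts are equal. In 5 cells the point lies on the line, in 4 CA3 cells above it (N40 by 1 read) and in 17 cells below it.

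Chrm1, the Gq-coupled M1 receptor, was the most widely read muscarinic gene. The gene (ENSMUSG00000032773.9) lies at chr19:8663789-8683587 on the plus strand, and 329 of its exon bases are shared with the small gene Gm22820 on the other strand, which has no row in the table. AC cells had a read in 5 of 10 cases (50%, interval 18.7 to 81.3%), CA3 cells in 8 of 13 (61.5%, interval 31.6 to 86.1%) and CA1 cells in 2 of 3 (66.7%, interval 9.43 to 99.2%). The AC cells ran from 0 to 304 CPM with a median of 4.22, the CA3 cells from 0 to 171 CPM with a median of 9.26, and the CA1 cells held 284, 59.3 and 0 CPM. The highest were N8 (1907 reads) in AC, N39 (1357 reads) in CA3 and N1 (171 reads) in CA1. High and empty cells occurred in every region, and the regions overlapped over most of their range.

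The direction of the Chrm1 difference depended on the measure. Summed CPM was 89.6 in AC (interval 86.4 to 92.8), 57.1 in CA3 (interval 55.0 to 59.3) and 48.5 in CA1 (interval 42.6 to 54.9), so AC was 1.57 times CA3, whereas the mean log2 level was 4.01 ± 4.52 (SD, n = 10) in AC and 4.36 ± 3.83 (n = 13) in CA3, a difference of -0.35. Without N8, which held 62.5% of the AC reads, the ratio of AC to CA3 was 0.720, and without N39, which held 48.6% of the CA3 reads, it was 2.55. CA1 had a mean log2 level of 5.84 ± 5.20 (n = 3), 1.48 above CA3 and 1.83 above AC. Without N1 both changed sign, to -0.58 and -0.21, without N6 they were 0.60 and 0.97, and without N2X 4.38 and 4.75. AC minus CA3 ran from -1.02 without N4 to 0.11 without N41, so its sign also turned. Every one of the differences between regions as first given was smaller than the SD between cells.

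Chrm3, the other Gq-coupled gene of the list, was read in 4 cells only. AC cell N44 held 96 reads (29.1 CPM) and N8 held 10 (1.60 CPM), and CA3 cells N39 and N29 held 77 and 26 reads (9.69 and 8.21 CPM). Summed over cells it stood at 3.11 CPM for AC (interval 2.55 to 3.76) and 2.11 for CA3 (interval 1.72 to 2.56), a fold of 1.48 that was 0.154 without N44 and 4.90 without N39. All 4 cells also held Chrna4 reads, N39 only 2 of them, under the floor of 3 reads. Over all 26 cells, 10 held Chrna4 reads. No CA1 read was found, and the limit of 3 reads is 0.596 CPM there. The gene (ENSMUSG00000046159.16) lies at chr13:9875486-10360847, minus strand.

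The Gi-coupled receptor genes were nearly absent. Chrm4 (ENSMUSG00000040495.4, chr2:91927249-91928688, plus strand) was read in AC cell N4 alone, with 83 reads or 48.4 CPM. Its summed AC level of 2.44 CPM was at least 39.7-fold higher than the CA3 level that 3 reads would give, but it came from 1 of 10 cells. A second library of the table, N4X, had almost the same counts as N4 (Pearson r of log2 counts 0.995, chi-square per degree of freedom 2.02 against 28.9 for the next closest pair within a region), so the 2 were taken as 1 cell; N4X was left out of the 26, and where all labelled cells were used the mean of both counts was taken. N4X held the same receptor genes: 173 reads of Chrm4, 893 of Chrm1, 196 of Chrna7 and 535 of Chrnb2. Chrm2 (ENSMUSG00000045613.9, chr6:36388084-36528414, plus strand) had no read in the 26 cells. By the limit of 3 reads, a count of 0 allows up to 0.0881 CPM in AC, 0.0614 in CA3 and 0.596 in CA1. For shares, 0 of 10, 13 and 3 cells allows up to 30.8, 24.7 and 70.8% (upper ends of the exact intervals). Chrna5 (ENSMUSG00000035594.10, chr9:54980880-55007779, plus strand), the accessory nicotinic subunit, had no read in any of the 47 libraries.

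**Figure D4:**
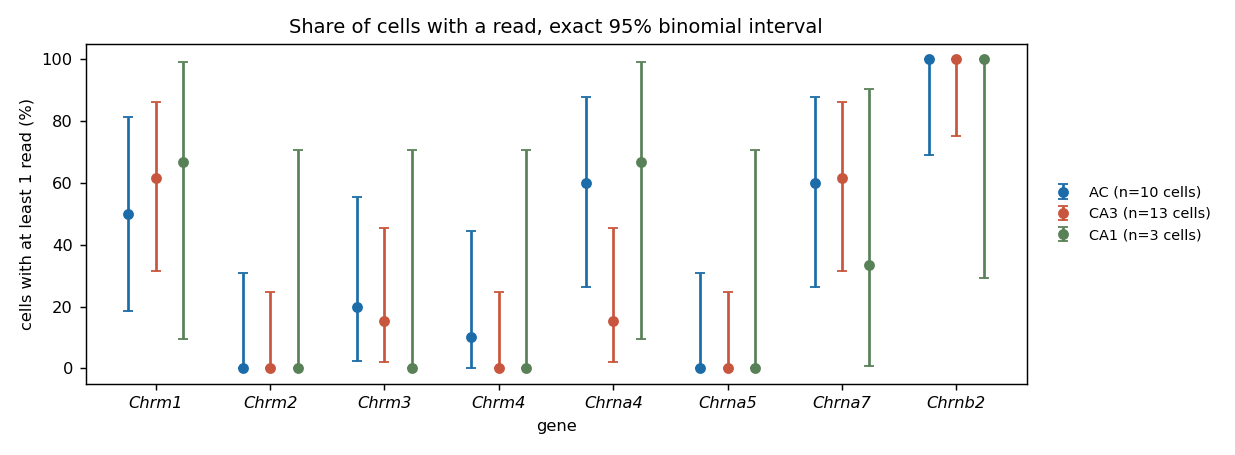
Share of cells with at least 1 read of each receptor gene (points, in percent) with exact 95% binomial intervals, by region (10 AC, 13 CA3 and 3 CA1 cells). The interval of Chrna4 in AC (26.2 to 87.8%) overlaps that in CA3 (1.92 to 45.4%), and those of the 3 CA1 cells are the widest.

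The counts of receptor genes past 1 log2 were read against all genes. Between AC and CA3, 2 of the 4 comparable genes differed by at least 1 log2, Chrna4 and Chrna7, both higher in AC. Chrna4 was comparable only through its AC cells. Of the 9494 genes compared, 16% were higher in AC by this measure and 43.2% were higher in CA3, where more genes were read per cell. Between CA1 and CA3, 3 of 4 differed, Chrm1 and Chrna4 higher and Chrna7 lower in CA1, against 29% of all genes higher in CA1 and 40.3% higher in CA3. Between CA1 and AC, Chrm1 and Chrnb2 were higher and Chrna7 lower in CA1, against 39.2% of all genes higher in CA1 and 28.2% higher in AC. The Chrnb2 difference in that comparison was 1.49, and 0.48 without N1 and 0.96 without N41. The 3 comparisons share cells, so their counts are not independent. The median difference of the 4 genes was 0.44, 1.08 and 0.68 in the 3 comparisons, and that of all genes -0.69, -0.43 and 0.30.

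**Figure D5:**
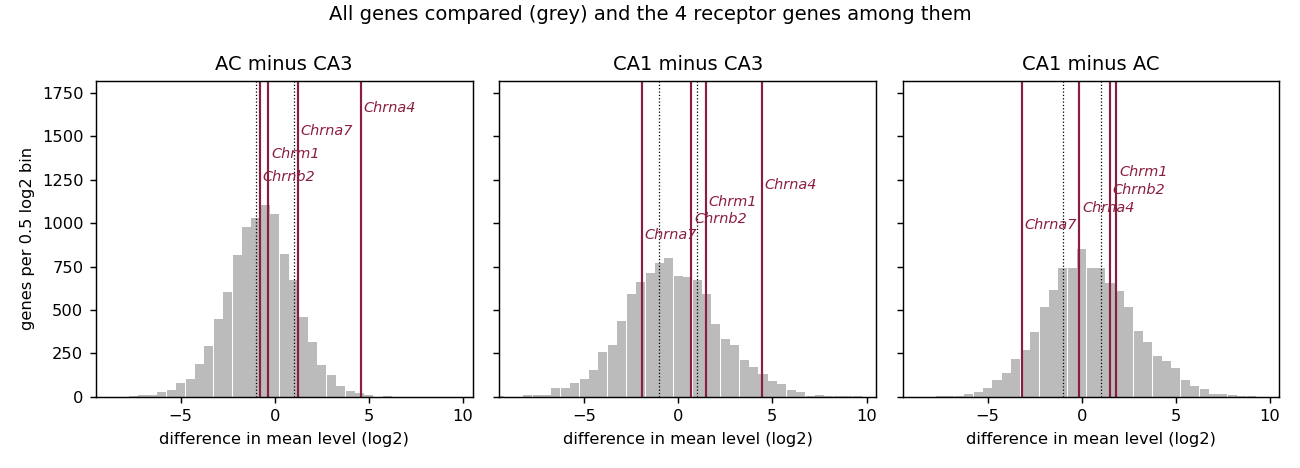
Number of genes per bin of 0.5 log2 (grey bars) by their difference in mean level in each comparison, with the 4 comparable receptor genes as red lines and dotted lines at 1 log2 in either direction. In AC minus CA3 the Chrna4 line at 4.57 lies in the far right tail and Chrna7 at 1.23 just past the dotted line, while Chrm1 and Chrnb2 lie within the bulk. Chrna4 is among the genes compared only through its AC cells.

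Levels of different genes were compared per kilobase of exon. The order with each cell left out was added after the values were seen. Over the summed AC reads, Chrna7 stood at 48.3 CPM per kilobase, Chrna4 at 35.6, Chrm1 at 13.8, Chrnb2 at 6.22, Chrm4 at 1.69 and Chrm3 at 0.498. Without N3X the first 2 changed places, with Chrna4 at 40.4 and Chrna7 at 26.5, and without N4 Chrm4 had no read. In CA3 Chrna7 again led with 13.6, followed by Chrm1 at 8.81 and Chrnb2 at 7.61, while Chrm3 (0.337) and Chrna4 (0.306) were lower and Chrm2, Chrm4 and Chrna5 were at 0; Chrm1 fell behind Chrnb2 without N39 (5.41 against 7.64) or N40 (7.28 against 8.27), and Chrm3 fell behind Chrna4 without N39 (0.102 against 0.355). In CA1 the order was Chrm1 at 7.47, Chrnb2 at 7.02, Chrna4 at 4.43 and Chrna7 at 2.95, but without N1, which held 70.1% of the Chrm1 reads, it was Chrna4 at 3.95, Chrnb2 at 3.90, Chrna7 at 3.36 and Chrm1 at 2.54. The place of Chrnb2 rests on reads that Adar may share. In AC, neighbours in this order overlapped widely from cell to cell, since Chrna7, Chrna4 and Chrm1 each had cells without a read. The Chrm4 model holds a single exon of 1440 bases.

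Each combination of Chrm1, Chrna4 and Chrna7, from none to all, occurred in at least 1 cell. Of the 15 cells with Chrm1 and the 15 with Chrna7, 8 had both, 7 had Chrm1 alone, 7 had Chrna7 alone and 4 had neither, and the Spearman correlation of their log2 levels was 0.00 over 26 cells. Chrna4 and Chrna7 were read together in 6 cells (rho 0.13), 4 of them in AC. Over the 26 cells the genes whose level ran most like that of Chrna4 were Sept3 (rho 0.69), Inpp5k (0.69) and Ndnf (0.67), out of 6597 genes read in at least 10 cells. Ndnf, which encodes a secreted protein and marks layer 1 interneurons, was read in 8 of the 10 cells with Chrna4 and in 3 without it. Those 8 were 5 AC cells, 2 CA1 cells and N29, the CA3 cell with most of the Chrna4 reads of that region. Ndnf itself was read in 7 of 10 AC, 1 of 13 CA3 and 3 of 3 CA1 cells. It was picked by its correlation with Chrna4 in these same cells, so the overlap carries no support of its own. Lhx6, a transcription factor of interneurons from the medial ganglionic eminence, was chosen for comparison after its values were seen: it was read in 12 cells, all in CA3, of which 1 had Chrna4 (N39, with 2 reads). For Chrm1 the most similar genes were Uvrag (0.71), the histamine receptor gene Hrh1 (0.64) and Actr1a (0.62), for Chrna7 Sh3gl1 (0.80), Sox12 (0.72) and Cnot10 (0.69), and for Chrnb2 Adar (0.85), Timm44 (0.80) and Pex16 (0.73). These correlations describe cells of 3 regions and unequal depth and carry no test.

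Few other genes of acetylcholine receptors or of acetylcholine metabolism were read. Of 13 further acetylcholine receptor subunits, 10 had no read, Chrm5 had 1 read in CA3, Chrna1 had 1 in AC and 5 in CA3, and Chrnb1 had 16 in AC and 11 in CA3, and none was read in 5 cells. Chat, Slc18a3 and Slc5a7, the genes for making acetylcholine, loading it into vesicles and taking up choline, had no read, while Ache, the enzyme that breaks acetylcholine down, was read in 6 of 10 AC, 9 of 13 CA3 and 2 of 3 CA1 cells. Among chaperones and Ly6 modulators of nicotinic receptors, 1 of 6 comparable genes was higher in AC than in CA3 by 1 log2 and 3 were lower, near the 16% and 43.2% of all genes. Ric3, a chaperone of the alpha7 channel, had the most negative AC minus CA3 difference of all genes in these pathway lists (-5.14), with reads in 4 of 10 cells of AC against 11 of 13 of CA3. Of the 15 cells with Chrna7, 13 also had Ric3, 4 of 6 in AC and 8 of 8 in CA3, a pair compared after the values were seen. Among G proteins and phospholipases C, 2 of 8 comparable genes were higher in AC and 3 were lower. Gnai3, a Gi alpha subunit, had the largest difference among the genes of the pathway lists, cell type markers not counted (4.71; 7 of 10 AC and 4 of 13 CA3 cells), followed by Plcb1, the phospholipase C that Gq activates (2.04; 10 of 10 and 11 of 13 cells), and Gna11, a Gq family subunit, had the most negative difference after Ric3 over all the pathway lists (-3.42; 4 of 10 and 11 of 13 cells). Of 7 comparable Kcnq and Kcnj potassium channel genes, targets of muscarinic signalling, 2 were higher and 1 was lower in AC. With so few genes a list, these counts were not read as different from all genes. The median differences of these 3 lists were -0.66, -0.57 and 0.62, against -0.69 for all genes.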

How the data were processed

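Single NPY-positive cells of mouse brain slices were sequenced as polyA RNA with a Nextera XT kit. Per the study's methods the authors trimmed reads with Trimmomatic and Flexbar, aligned them with STAR to GRCm38 and counted them with HTSeq, while the submitters' processing notes name featureCounts; the strand setting is not given in the sources used here. The deposited values are raw counts of reads per gene symbol, whole numbers, not normalized, and the authors averaged IDs with the same symbol. The 26 cells compared (10 AC, 13 CA3, 3 CA1), the gene lists and the rule for named genes were chosen with earlier results of these data known. The lists named are other receptor subunits, chaperones and Ly6 modulators, acetylcholine metabolism, G proteins and phospholipase C, potassium channels, and cell type markers. Named genes were the 8 receptors, the 2 pathway genes with the largest and the 2 with the smallest AC minus CA3 difference, and the 3 genes with the highest Spearman correlation to each receptor gene read in at least 10 cells.

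Counts were divided by size factors from scran 1.30.0 (computeSumFactors, pools of 10 and 20 cells), as in the study, and turned into log2(normalized count + 1). CPM is reads per 1000000 counts of a cell or region. Only genes read in 5 or more of the 26 cells were compared, and differences of at least 1 log2 in mean level were counted. With each region 1 sample there was no test. Summed reads have exact Poisson intervals, folds exact conditional intervals and shares of cells exact Clopper-Pearson intervals, at 95%; a count of 0 was read as a limit of 3 reads. Scripts were tested on simulated data. Alternatives were library size, edgeR 4.0.16 TMM and DESeq2 1.42.0 factors, pseudocounts of 0.1 and 10, thinning, centring, no filter, all labelled cells, and leaving out each cell. The 2 cells labelled DG and the NPY-negative cell entered no comparison. Gene models came from the GENCODE annotation of GRCm38, promoters from RefSeq.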

Additional observations from a re-analysis of the deposited data

Results flagged for a closer look

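Among the 10 AC cells, 2 receptor genes each had a cell that stood far from the others: Chrm3 in N44, at a log2 level of 6.73 with a gap to the next cell of 0.595 of the whole range, and Chrm4 in N4, at 7.32, where the other 9 cells had no read. Chance flags about 1 in 20 groups, and genes read in so few cells are flagged by their zeros. The 13 CA3 and 3 CA1 cells were too many or too few for this check.

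Receptor reads also appeared in labelled cells outside the 26. In AC, Chrna4 had 2381 reads in N47, 1690 in N48 and 1346 in N51, cells with 1719, 1814 and 1565 genes read, and no other receptor gene was read in them. AC cell N45 held 104 reads of Chrm1, 14 of Chrm4 and 170 of Chrnb2, and N10 held 114 of Chrnb2. In CA3, N36 held 2775 reads of Chrna7 with 1753 genes read, and N14 held 4 reads of Chrm2, the only ones in the series. The 2 dentate gyrus cells and the NPY-negative CA3 cell, at 89297 to 291745 reads, had no receptor read.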

How the results depend on the processing

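Chrna4 stayed at least 1 log2 higher in AC than in CA3 under every alternative run (2.93 to 6.86) and with each cell left out (3.84 to 5.16). The number of receptor genes past 1 log2 ran from 1 to 3 for AC and CA3, from 1 to 3 for CA1 and CA3 and from 2 to 4 for CA1 and AC when each cell was left out. With all labelled cells (N4 and N4X averaged; differences without N49 and N9, which had no positive size factor) it was 1 for AC and CA3, Chrna4, and the alternatives that left out no cell kept each count within 1 of the value first given. Without the filter on low counts the 3 counts were 2, 3 and 3, as with it. The genes behind a count could change. For CA1 and AC they were Chrna4 and Chrna7 by the log2 ratio of summed or of mean CPM. For CA1 and CA3 they were Chrm1, Chrna4 and Chrnb2 with all labelled cells. Chrm1 turned over by summed CPM, to -0.24 for CA1 minus CA3 and -0.89 for CA1 minus AC, and without CA1 cell N1, to -0.58 and -0.21; without a cell these differences reached 4.38 and 4.75. With all labelled cells the share with Chrnb2 was 63.2% for AC and 61.9% for CA3, the Chrna7 difference between AC and CA3 was 0.02, and CA1 minus CA3 was 2.72 for Chrm1 and 3.00 for Chrnb2. An alternative added after seeing the data took each cell's Adar count off its Chrnb2 count, which by construction left reads in 4 CA3 cells and none in AC or CA1, so no difference is read from it. No paired analysis was possible because the result comes from no test and the cells carry no shared numbers. The share of cells is limited by 3 to 13 cells a region; what causes these shifts was not tested.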
